A study of Brassica napus with 16 samples.

Results

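RGA encodes a DELLA protein, a repressor of the growth response to the plant hormone gibberellin, and 4 copies of it in oilseed rape are described here. They are BnaA06g34810D and BnaA09g18700D in the A subgenome and BnaC07g20900D and BnaC09g52270D in the C subgenome of Brassica napus, an allotetraploid. The copies were taken by identifier from the 101040 genes listed, and all 4 passed the filter on low values that left 54206 genes for testing. RNA-seq was done on 4 tissues of the cultivar 2063A and the same 4 of B409. The 8 groups hold 2 libraries each, or 16 in all. Roots were collected 7 d after planting on wet filter paper and young leaves from hydroponic plants at 2 weeks. Flower buds measured at most 2 mm and siliques (the seed pods) 3 to 5 cm, both from plants moved to the field. The labels name no treatment other than freezing, and tissue is tied to plant age and growing place. Whether replicates are separate plants is not stated, so each p-value reflects the spread between these libraries, which may be only technical.

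DELLA proteins are nuclear regulators of the GRAS family that hold back growth by binding other transcription factors. When gibberellin binds its receptor GID1, the complex captures the DELLA protein, which is then marked by the SLY1 ubiquitin ligase and destroyed by the proteasome. In Arabidopsis, RGA is known for restraining stem elongation and floral organ growth. In Brassica napus, alleles that make an RGA copy resistant to this breakdown are known to cause dwarf plants. DELLA activity is thus set largely at the level of the protein, and the values below are transcript levels alone.

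The deposited values are FPKM (fragments scaled to transcript length and to the mapped total), so levels can be compared between copies per unit length. In each library 33483 to 41456 genes reached an FPKM of 1. FPKM files hold no read totals, but ratios of low values between libraries piled up at fixed steps, and these place the libraries within a 2.76-fold range of relative depth. The mean FPKM of the copies over the 16 libraries was 22.0 for BnaA09g18700D, 17.5 for BnaA06g34810D, 16.2 for BnaC09g52270D and 15.2 for BnaC07g20900D. Between 86.1% and 91.0% of tested genes had a lower mean, so none of the copies is a weakly measured gene. No source used here says how reads that match several copies were assigned, and the split between the copies is uncertain where their sequences are alike, which was not measured here. Tissue identity was not checked against marker genes, because no table used here ties the chosen marker symbols to the identifiers. In bulk tissue, fewer cells that express a gene and less RNA per cell cannot be told apart.

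The first comparison asked in which tissue each copy is transcribed most. All 4 copies had their highest mean level in silique and their lowest in root. BnaA09g18700D, the copy with the highest mean, was at 33.7 and 36.7 FPKM in silique of 2063A and at 40.0 and 32.6 in B409. In root it was at 7.63 and 7.60 in 2063A and at 8.95 and 7.02 in B409. Every silique library thus lay above every other library, and every root library below. The intermediate tissues were close to each other, with 20.5 and 23.9 in young leaf of 2063A, 23.5 and 23.4 in young leaf of B409, 24.1 and 24.3 in flower bud of 2063A, and 18.8 and 19.4 in flower bud of B409.

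BnaA06g34810D, the other A subgenome copy, was at 29.4 and 30.5 FPKM in silique of 2063A and at 24.5 and 26.3 in B409. Its root values were 8.48 and 7.85 in 2063A and 6.65 and 6.42 in B409. Silique again stood above all other libraries and root below them. Young leaf held 13 and 19.4 in 2063A and 17.5 and 21.3 in B409, and flower bud 18.8 and 19.4 in 2063A and 15.0 and 15.0 in B409, so these tissues overlapped.

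BnaC07g20900D varied least between tissues. It was at 24.7 and 23.8 FPKM in silique of 2063A, at 22.4 and 21.9 in silique of B409, at 8.05 and 8.16 in root of 2063A, and at 7.16 and 7.08 in root of B409. Young leaf gave 10.2 and 16.2 in 2063A and 18.5 and 19.2 in B409, and flower bud 15.3 and 14.6 in 2063A and 13.2 and 12.8 in B409. The replicates of 2063A young leaf lay on either side of the flower bud values, and no young leaf library reached those of silique.

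BnaC09g52270D had the lowest root values of the copies in 2063A, at 5.45 and 5.17 FPKM, with 5.88 and 6.45 in root of B409. In silique it was at 24.0 and 23.8 in 2063A and at 26.2 and 23.7 in B409, and in flower bud at 14.8 and 14.4 in 2063A and 11.5 and 12.2 in B409. Young leaf gave 13.6 and 22.8 in 2063A and 25.1 and 23.7 in B409. This was the only copy with young leaf libraries inside the range of silique, and the young leaf and silique libraries of B409 overlapped.

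**Figure D1:**
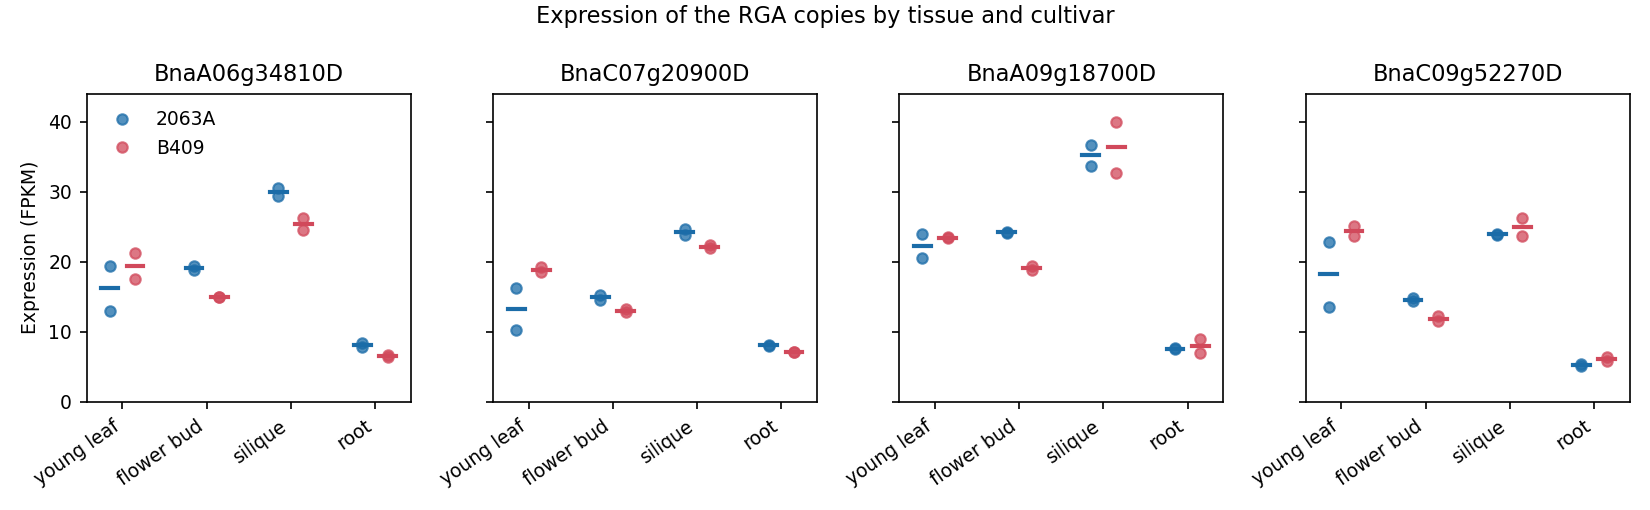
Expression in FPKM (vertical axis) of the 4 RGA copies in young leaf, flower bud, silique and root, with 1 point per library, a bar at the mean of each pair of replicates, and the cultivars in separate colours. Silique is highest and root lowest in each panel except that young leaf of B409 meets silique for BnaC09g52270D, and the young leaf replicates of 2063A are the farthest apart of any pair for each copy but BnaA09g18700D.

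Each tissue was tested against the mean of the other 3, averaged over the cultivars, with limma on log2(FPKM + 1). A change was called at an adjusted p below 0.05 over all tested genes. In silique, 4 of 4 copies rose. This contrast called 55.9% of all tested genes, 30.2% of all tested as higher in silique. The log2 differences were 1.13 for BnaA09g18700D (SE 0.08, adjusted p = 2.1e-07), 1.03 for BnaA06g34810D (SE 0.09, adjusted p = 1.8e-06), 1.0 for BnaC09g52270D (SE 0.11, adjusted p = 7.0e-06) and 0.91 for BnaC07g20900D (SE 0.09, adjusted p = 5.5e-06). These correspond to 2.19-fold, 2.04-fold, 1.99-fold and 1.88-fold higher values on that scale. The median over all tested genes in the same contrast was 0.05. At least 2-fold were 2 of the 4, with 14.9% of all tested genes called at that size in either direction.

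In root, 4 of 4 copies fell, in a contrast that called 74.1% of all tested genes, 36.1% of all tested as lower. The fall was deepest for BnaA09g18700D, at -1.62 (SE 0.08, adjusted p = 2.5e-09), and nearly as deep for BnaC09g52270D, at -1.56 (SE 0.11, adjusted p = 4.7e-08). BnaA06g34810D was at -1.35 (SE 0.09, adjusted p = 6.0e-08) and BnaC07g20900D to -1.08 (SE 0.09, adjusted p = 5.1e-07). All 4 falls were at least 2-fold, and 33.6% of all tested genes were called at that size in either direction. The combination of highest tissue mean in silique and lowest in root was found for 2976 of the tested genes (5.49%).

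Young leaf and flower bud lay between these extremes. In young leaf 2 of 4 copies rose, against 17.7% of all tested genes called higher and 83.7% called in either direction. BnaC09g52270D was higher by 0.70 (SE 0.11, adjusted p = 7.2e-05) and BnaA09g18700D by 0.30 (SE 0.08, adjusted p = 0.00471). BnaA06g34810D and BnaC07g20900D, both at 0.19, did not pass (adjusted p = 0.0718 and 0.0839). The median over all tested genes was -0.51 in young leaf, so each of the copies lay above it, and after quantile normalization, with a median of -0.20, BnaA06g34810D and BnaC07g20900D passed as well, at 0.53 and 0.54. Both also passed without replicate 1 of 2063A young leaf, a fit that assumes the remaining library to vary like the other groups (0.33 and 0.34, adjusted p = 0.00191 and 3.7e-04), and BnaA06g34810D passed without replicate 1 of B409 young leaf (0.26, adjusted p = 0.0326). With libraries scaled to equal totals, BnaA09g18700D no longer passed (0.17, adjusted p = 0.0705), and the median of all genes was then -0.64. In flower bud 1 of 4 copies rose, in a contrast with 75.2% of all tested genes called and 45.9% higher. That copy was BnaA09g18700D, at 0.19 (SE 0.08, adjusted p = 0.0461), and quantile normalization ended the call (0.08, adjusted p = 0.347), while the median of all genes moved from 0.21 to 0.01. Leaving out 1 library ended it in 10 of 16 fits, those without replicate 1 of 2063A young leaf or silique, replicate 2 of B409 silique or root, any flower bud library or either root library of 2063A (0.17 to 0.20, adjusted p from 0.0543 to 0.119). BnaA06g34810D, at 0.13 (adjusted p = 0.224), passed without replicate 2 of 2063A young leaf (0.18, adjusted p = 0.0284). For BnaC09g52270D the flower bud difference was -0.13 (adjusted p = 0.275), and it passed as a fall after quantile normalization (-0.30, adjusted p = 0.0128) and without replicate 1 of 2063A young leaf (-0.19, adjusted p = 0.0119).

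**Figure D2:**
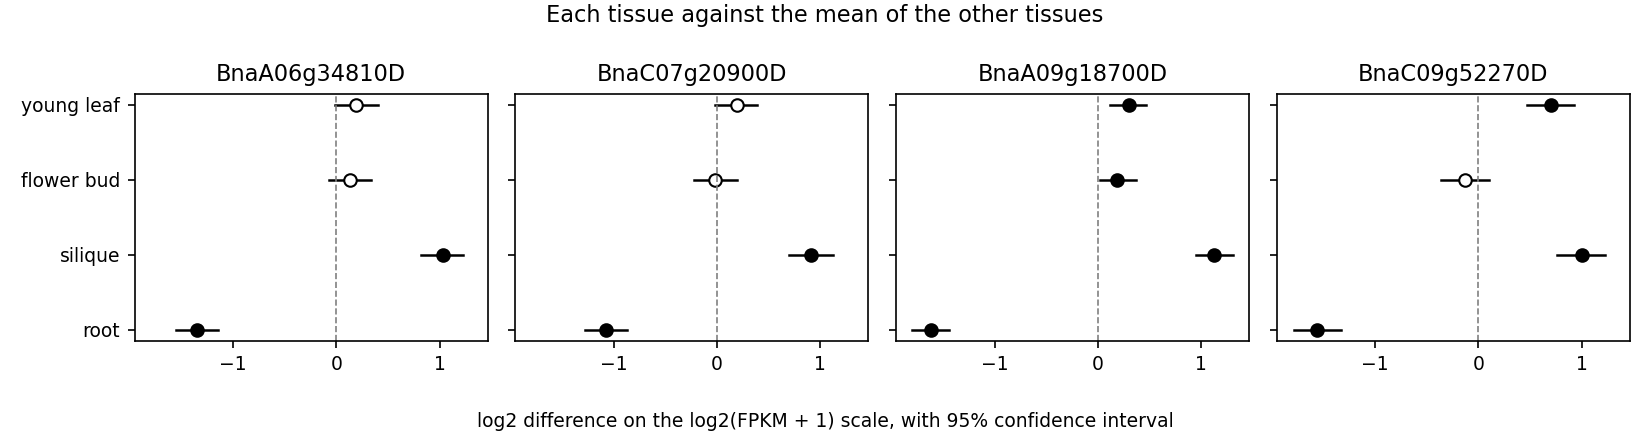
Log2 difference of each tissue from the mean of the other tissues on the log2(FPKM + 1) scale (horizontal axis), averaged over the cultivars, with 95% confidence intervals from limma, for each copy. Filled points have an adjusted p below 0.05. Silique lies between 0.91 and 1.13 and root between -1.62 and -1.08, while young leaf and flower bud lie nearer to 0.

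Pairs of tissues were tested to order the levels of each copy. Silique was above flower bud for 4 of 4 copies, by 0.67 to 0.84 on the log2 scale (52.9% of all tested genes called, 22.5% with silique higher). Young leaf was above root for 4 of 4 copies (73% of all tested genes called, 20.7% higher in young leaf), as was flower bud (75.3% called, 44.1% higher) and silique (65.1% called, 32.7% higher). The silique-to-root difference was 2.06 for BnaA09g18700D, 1.92 for BnaC09g52270D, 1.78 for BnaA06g34810D and 1.49 for BnaC07g20900D. Young leaf against silique called 64.2% of all tested genes (47.9% of all tested as lower in young leaf) and 3 of 4 copies, with young leaf lower by 0.54 to 0.62. Quantile normalization ended the call of BnaC07g20900D (-0.21, adjusted p = 0.0913). The exception was BnaC09g52270D, where young leaf and silique were not separated (-0.22, 95% interval -0.51 to 0.06, adjusted p = 0.15), and this difference passed with equal totals (-0.33, adjusted p = 0.045) and without replicate 2 of 2063A young leaf (-0.40, adjusted p = 0.00101). BnaC09g52270D was also the copy whose young leaf level passed against flower bud, by 0.62 (SE 0.13, adjusted p = 9.4e-04, 73.5% of all tested genes called, 19.3% higher in young leaf), though the libraries overlapped. For the others the young leaf minus flower bud intervals included 0, from -0.20 to 0.30 for BnaA06g34810D, from -0.14 to 0.29 for BnaA09g18700D and from -0.10 to 0.40 for BnaC07g20900D. After quantile normalization these were 0.41, 0.39 and 0.55 and passed, and BnaC07g20900D also passed without replicate 1 of 2063A young leaf (0.31, adjusted p = 0.00225). Whether BnaC09g52270D differs from the other copies in its young leaf level was not tested.

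The second comparison asked which copy dominates in each tissue, as shares of the FPKM summed over the copies. The sum ran from 27.0 in root of B409 to 115.0 in silique of 2063A. No copy was silent or strongly dominant, and shares ran from 17.8% to 35.8% over all libraries. BnaA09g18700D was the highest copy in 11 of 16 libraries and the lowest in none, with a mean share of 30.6%. The mean shares of the others were 24.8% for BnaA06g34810D, 22.3% for BnaC07g20900D and 22.3% for BnaC09g52270D. These are shares of one family and are given as a description, with no test.

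BnaA09g18700D dominated in flower bud and silique. It was highest in all 8 libraries of these tissues, its replicates did not overlap those of the next copy, and it exceeded that copy by 1.17-fold to 1.43-fold. The next copy in each of these groups was BnaA06g34810D, and both C subgenome copies followed, except that BnaA06g34810D and BnaC09g52270D overlapped in silique of B409. In young leaf the order differed between the cultivars. In 2063A BnaA09g18700D led with a share of 35.8% and 29.1% in the replicates, and its libraries overlapped those of BnaC09g52270D. In B409 BnaC09g52270D led with 29.7% and 27.0%, above BnaA09g18700D with 27.8% and 26.7%, a lead of 1.04-fold between the means that did not overlap between replicates.

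In root the order at the top was not separated between replicates in either cultivar. In 2063A BnaA06g34810D and BnaC07g20900D were level (8.16 ± 0.449 and 8.10 ± 0.0816 FPKM, SD, n = 2 each) and overlapped, and BnaA09g18700D followed at 7.62 ± 0.0178. In B409 BnaA09g18700D was highest on average (7.98 ± 1.36) and overlapped with BnaC07g20900D (7.12 ± 0.0582). BnaC07g20900D reached its largest shares here, 27.2% and 28.4% in 2063A and 25.0% and 26.2% in B409, against at most 22.5% in the libraries of the other tissues. The A subgenome copies together held 55.4% of the sum on average, with a range of 48.4% to 60.2%, and more than 50% in 14 of 16 libraries. The libraries under 50% were replicate 1 of young leaf and replicate 2 of root, both of B409. BnaA09g18700D exceeded BnaC09g52270D in 14 of 16 libraries, with a ratio of 0.936 to 1.69, and both exceptions were young leaf of B409. BnaA06g34810D exceeded BnaC07g20900D in 12 of 16 libraries, with a ratio of 0.907 to 1.33.

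**Figure D3:**
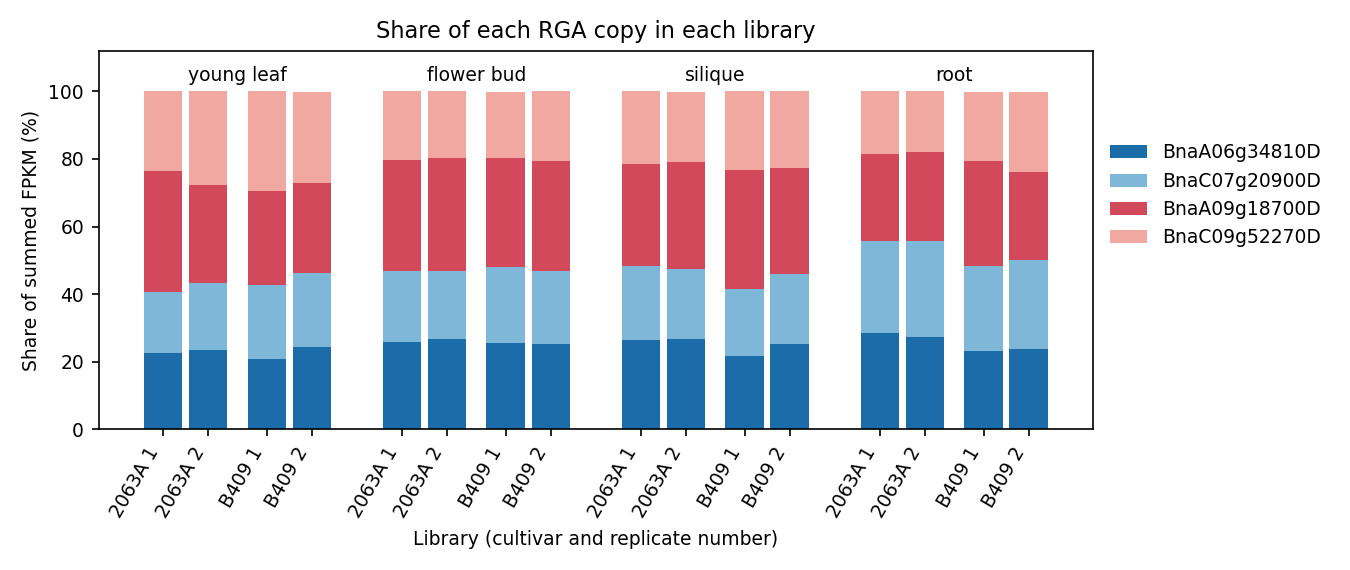
Share of each RGA copy in the FPKM summed over the copies (vertical axis, percent) for each of 16 libraries, labelled by cultivar and replicate number and grouped by tissue. BnaA09g18700D takes the widest band in flower bud and silique. BnaC09g52270D has its own largest mean share in young leaf of both cultivars. BnaC07g20900D has its own largest shares in root, without being the widest band in every root library.

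The third comparison was between the cultivars. In limma's average over tissues, 0 of 4 copies passed, where 38.6% of all tested genes did, and 0 had an unadjusted p below 0.05. The log2 differences were 0.15 for BnaA06g34810D (95% interval -0.03 to 0.32, adjusted p = 0.188), 0.04 for BnaA09g18700D (-0.11 to 0.19, adjusted p = 0.71), -0.01 for BnaC07g20900D (-0.19 to 0.17, adjusted p = 0.945) and -0.10 for BnaC09g52270D (-0.30 to 0.10, adjusted p = 0.428). All 4 intervals thus lay within a 2-fold difference in either direction. These averages moved with young leaf. Without its 4 libraries, BnaA06g34810D was higher in 2063A by 0.28 (adjusted p = 4.5e-04) and BnaC07g20900D by 0.16 (adjusted p = 0.00852), in a fit that called 45.1% of all tested genes. BnaA06g34810D also passed without replicate 1 of 2063A young leaf alone (0.21, adjusted p = 0.0128), and BnaC09g52270D without replicate 2 (-0.19, adjusted p = 0.0139).

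BnaA06g34810D was higher in both libraries of 2063A than in both of B409 in flower bud, silique and root, as were 11.7% of all tested genes. BnaC07g20900D stood apart in the same direction in these tissues. For BnaA06g34810D the means were 19.1 ± 0.417 against 15.0 ± 0.0159 FPKM in flower bud, 30.0 ± 0.826 against 25.4 ± 1.28 in silique and 8.16 ± 0.449 against 6.53 ± 0.167 in root (SD, n = 2 each). On the log2 scale the differences were 0.33, 0.23 and 0.28, and none passed (adjusted p = 0.168, 0.437 and 0.294). These tests use a spread shared with young leaf. In fits to the libraries of a single tissue, the BnaA06g34810D difference passed in flower bud but not in silique or root. With replicate 2 alone for young leaf, a fit added after the values were seen in which each young leaf group is 1 library and takes its spread from the other groups, all 3 passed (limma adjusted p = 0.00605, 0.0437 and 0.0168, with 36.6%, 26.4% and 29% of all tested genes called).

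In young leaf, 1 of 4 copies passed, in a contrast with 18.6% of all tested genes called, and 9.36% of all tested genes called lower in 2063A. BnaC07g20900D was lower in 2063A, by 0.52 on the log2 scale (log2 difference -0.52, SE 0.16, adjusted p = 0.045). The call was lost when any single library other than replicate 2 of 2063A young leaf was left out, in 15 of 16 such fits, and without replicate 1 of 2063A young leaf the difference was -0.21 (adjusted p = 0.241). With the replicate number as a block the adjusted p was 0.0539, and with the young leaf libraries alone 0.543. BnaC09g52270D was also lower in both libraries of 2063A, at -0.45 (95% interval -0.85 to -0.05), and did not pass (adjusted p = 0.124). Both libraries of B409 lay above both of 2063A in young leaf for 18.7% of all tested genes. BnaA06g34810D stood at -0.27 (adjusted p = 0.33) and BnaA09g18700D at -0.08 (adjusted p = 0.835), both with overlapping libraries. Without replicate 2 of 2063A young leaf, BnaC09g52270D was at -0.80 and BnaA06g34810D at -0.54. Without replicate 1 instead, neither copy passed. The 2063A library then left stood at 22.8 FPKM for BnaC09g52270D, against 25.1 and 23.7 in B409. For BnaA06g34810D it stood at 19.4, between the 17.5 and 21.3 of B409. Either such fit keeps 1 library of 2063A young leaf, which is assumed to vary like the other groups.

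Replicate 1 of 2063A young leaf was below replicate 2 for every copy. The gap was 0.71 on the log2(FPKM + 1) scale for BnaC09g52270D, 0.62 for BnaC07g20900D, 0.54 for BnaA06g34810D and 0.22 for BnaA09g18700D, compared with a median of 0.12 over the 21593 tested genes with a mean FPKM of at least 5. Between 58.6% and 87.6% of those genes had a smaller or more negative gap. In B409 the corresponding gaps ran from -0.08 to 0.27. The relative depth of replicates 1 and 2 was 0.838 and 1.77 in 2063A and 1.0 and 1.67 in B409, as multiples of the median library. The part of depth in these gaps was not tested.

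In flower bud 0 of 4 copies passed, where 26.2% of all tested genes did, although both libraries of 2063A lay above both of B409 for each copy. The same separation was found for 39.9% of all tested genes. The differences were 0.33 for BnaA06g34810D, 0.32 for BnaA09g18700D, 0.28 for BnaC09g52270D and 0.19 for BnaC07g20900D, with adjusted p from 0.117 to 0.468. Only BnaA09g18700D had an unadjusted p below 0.05 in limma, 0.0394. The median over all tested genes in this contrast was 0.08. With the flower bud libraries alone, BnaA06g34810D and BnaA09g18700D passed (adjusted p = 0.0249 and 0.0245). Leaving out either young leaf library of 2063A also let BnaA06g34810D pass (adjusted p = 0.0421). In silique 0 of 4 copies passed (17.9% of all tested genes called), with differences between -0.06 and 0.23, and in root 0 of 4 (21.6% called), with differences between -0.18 and 0.28. No copy had an unadjusted p below 0.05 in either. For BnaC09g52270D in root the interval ran from -0.58 to 0.22, and 5.45 and 5.17 FPKM in 2063A stood below 5.88 and 6.45 in B409. Both libraries of B409 lay above both of 2063A in root for 26.9% of all tested genes.

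**Figure D4:**
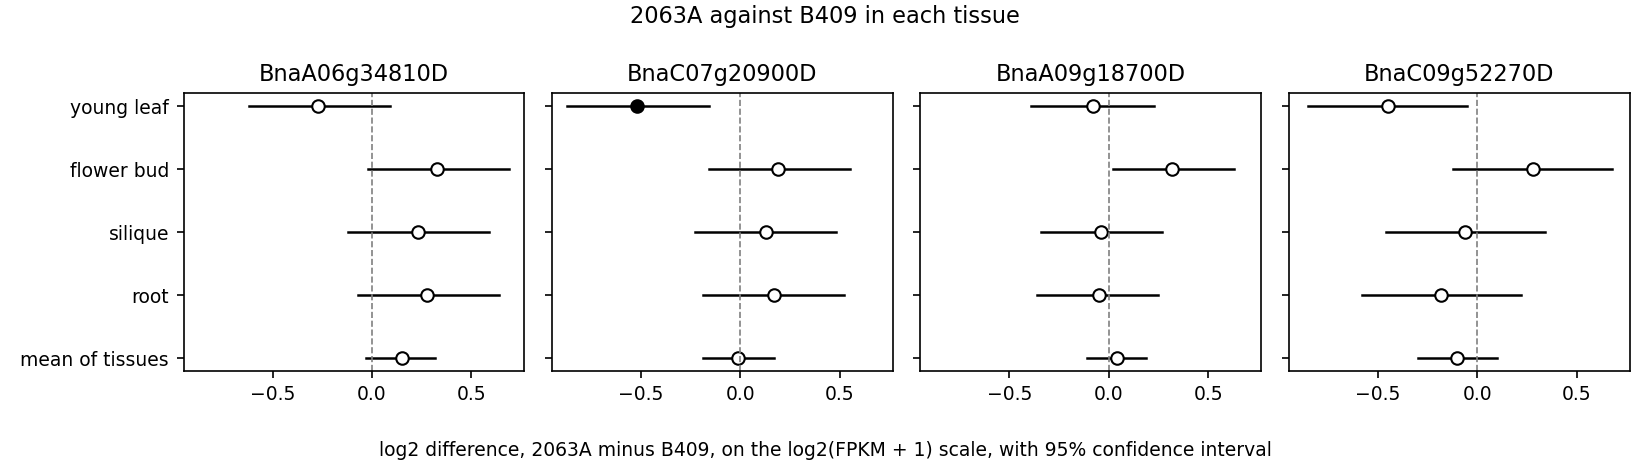
Log2 difference between the cultivars, 2063A minus B409, on the log2(FPKM + 1) scale (horizontal axis) with 95% confidence intervals from limma, for each copy in each tissue and averaged over the tissues. Filled points have an adjusted p below 0.05, and the single one is BnaC07g20900D in young leaf at -0.52.

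Whether the cultivar difference depended on tissue was tested over the interaction contrasts. No copy passed, where 20.9% of all tested genes did. The adjusted p was 0.0998 for BnaC07g20900D (unadjusted p = 0.0274 from limma, the only copy below 0.05), 0.208 for BnaA06g34810D, 0.226 for BnaC09g52270D and 0.37 for BnaA09g18700D. For BnaC07g20900D, BnaC09g52270D and BnaA06g34810D this outcome changed in 1 of 16 fits with a library left out, the fit without replicate 2 of 2063A young leaf. That fit keeps only the lower replicate of the group and takes its spread from the other groups. Without replicate 1 of 2063A young leaf instead, no copy passed.

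The patterns of the copies were compared over the 8 group means. Pearson's r of log2(FPKM + 1) was 0.984 between BnaA06g34810D and BnaC07g20900D and 0.957 between BnaA09g18700D and BnaC09g52270D, and the lowest of the 6 pairs was 0.937, between BnaA06g34810D and BnaC09g52270D. Many other genes were as alike. BnaA06g34810D was in place 579 among the genes most similar to BnaC09g52270D, and the best place of any copy in the list of another was 4, for BnaA06g34810D in that of BnaC07g20900D. These are descriptions over 8 points that share libraries and reads of similar copies. Among 21589 other genes with a mean FPKM of at least 5, the most similar to BnaA09g18700D were BnaC05g34710D (r = 0.999), BnaA04g25190D (0.998) and BnaC01g09700D (0.994). For BnaA06g34810D they were BnaA07g23850D (0.988), BnaCnng15730D (0.988) and BnaC09g17760D (0.987). For BnaC07g20900D they were BnaA07g23850D (0.99), BnaAnng23090D (0.99) and BnaAnng38540D (0.988), and for BnaC09g52270D BnaA02g36490D (0.995), BnaC05g30730D (0.992) and BnaA01g08240D (0.992). BnaA07g23850D thus appeared for both BnaA06g34810D and BnaC07g20900D. All the genes named had their highest tissue mean in silique and lowest in root, which their choice by likeness to the copies favours. All but BnaC09g17760D and BnaC05g30730D varied more between tissues than the copy they were matched to. The log2 range between tissue means was up to 7.91, for BnaA04g25190D, against 2.06 for BnaA09g18700D. The log2 ranges of the copies, 1.49 to 2.06, stood beside a median of 1.62 for tested genes with a mean FPKM of at least 5.

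Genes beside the copies were compared by identifier number, 5 listed on each side. In identifier order BnaC09g52270D came at 95.4% of the listed genes of C09, and the others at 84.9% of A06, 40.7% of C07 and 32.6% of A09. Of the 10 listed neighbours, 3 were tested beside BnaC09g52270D, and none of them passed between the cultivars in any tissue. The same held for the 5 tested beside BnaA09g18700D. Beside BnaA06g34810D, 1 of 4 tested neighbours passed, BnaA06g34860D, which was higher in 2063A in flower bud (log2 difference 1.5, adjusted p = 0.00888). Beside BnaC07g20900D, 1 of 3 passed, the weakly expressed BnaC07g20890D, which was higher in B409 in flower bud (-0.83, adjusted p = 1.4e-05) and over tissues (-0.21, adjusted p = 0.00163). Of all tested genes, 26.2% were called in flower bud and 38.6% over tissues. Those shares are for single contrasts, in either direction. The share called in any of the cultivar contrasts was not counted, so the neighbour counts have no matching share beside them. The identity of one copy could be set beside a second source. In the RefSeq gene table for assembly Da-Ae, the single entry with the synonym RGA lies between the entries of BnaA09g18690D and BnaA09g18790D, the interval in which identifier order puts BnaA09g18700D. That interval holds 8 protein-coding entries, so it does not single out this copy, and the intervals of the other copies hold no entry with that synonym. Those intervals hold 63 protein-coding entries for BnaA06g34810D, 21 for BnaC07g20900D and 319 for BnaC09g52270D. Neighbours of BnaC09g52270D by identifier number may thus not lie beside it on the chromosome. Of the other gibberellin pathway genes chosen for description, such as the receptors GID1A to GID1C, none could be tied to an identifier, and they were not analysed here.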

How the data were processed

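Trimmomatic, TopHat2 and Cufflinks 2.1.1 are listed in the submitters' processing notes, without roles or settings. Build, annotation and treatment of reads that match several copies: not given in the sources used here. Per the file headers, the deposited value is 1 FPKM per gene and library. Values were transformed to log2(FPKM + 1), which understates changes of low genes, and testing was limited to the 54206 genes that reached an FPKM of 1 in 2 or more libraries. Limma 3.58.1 in R 4.3.3 was fitted to the 16 libraries with 1 mean per group and a mean-variance trend (8 residual and 3.35 prior degrees of freedom). Tests were two-sided, with Benjamini-Hochberg adjustment over all tested genes. On simulated data, only the tests of the cultivar difference in root and over tissues were tried. A gene was called at an adjusted p below 0.05. Counts of at least 2-fold also needed an absolute log2 change of 1. Relative depth was read from the tallest pile of FPKM ratios between libraries among genes below an FPKM of 0.3. All but 3 of 120 library pairs were placed within 0.05 log2, and absolute depth is unknown. Like genes were the 3 with the highest Pearson r per copy among genes with a mean FPKM of at least 5, and neighbours were the 5 nearest listed identifiers on each side. Of the identifiers, 3347 matched the RefSeq table, none of them an RGA copy. No sequences were used. The copies, lists and tests were chosen with earlier results of these data known.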

Additional observations from a re-analysis of the deposited data

Results flagged for a closer look

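For BnaC07g20900D the cultivars stood apart in opposite directions in different tissues. Both libraries of 2063A were below both of B409 in young leaf (log2 difference -0.52), and above them in flower bud (0.19), silique (0.13) and root (0.17). BnaC09g52270D was lower in both libraries of 2063A in young leaf (-0.45) and root (-0.18) and higher in flower bud (0.28). Libraries of the cultivars stood apart in opposite directions in at least 1 pair of tissues for 23.6% of all tested genes. The differences between single pairs of tissues were not tested, and limma's interaction test over the 4 tissues did not pass for either copy (adjusted p = 0.0998 for BnaC07g20900D and 0.226 for BnaC09g52270D).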

How the results depend on the processing

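Silique and root against the other tissues kept direction and call for all 4 copies in 208 of 208 alternatives, with log2 values of 0.73 to 1.2 in silique and -1.73 to -0.82 in root. For BnaA09g18700D the flower bud rise was 0.12 with a pseudocount of 5, 0.08 after quantile normalization and 0.19 with the replicate block (adjusted p = 0.0567), and 0.17 to 0.22 with a library left out, which ended the call in 10 of 16 fits. Its young leaf rise was 0.17 with equal totals. In young leaf BnaA06g34810D and BnaC07g20900D were at 0.53 and 0.54 after quantile normalization and at 0.40 and 0.35 with replicate 2 alone for young leaf, and at 0.06 to 0.33 and 0.03 to 0.34 with a library left out. In flower bud BnaC09g52270D was at -0.30 after quantile normalization, at -0.18 with replicate 2 alone and at -0.19 to -0.07 with a library left out, and BnaA06g34810D at 0.08 to 0.18.

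Between the cultivars, BnaC07g20900D in young leaf stayed at -0.52 but lost the call without a filter (adjusted p = 0.0528), with array weights (0.165), with the replicate block (0.0539) and with the young leaf libraries alone (0.543). It was at -0.23 with replicate 2 alone and at -0.83 to -0.21 with a library left out. BnaA06g34810D and BnaC09g52270D ranged there from -0.54 to 0.01 and from -0.80 to -0.09. BnaA06g34810D in flower bud, at 0.33, passed with array weights (adjusted p = 0.0291), with the flower bud libraries alone and with replicate 2 alone for young leaf, and was 0.31 to 0.35 with a library left out. With array weights its root difference of 0.28 passed (adjusted p = 0.048), and with replicate 2 alone for young leaf its root difference of 0.28 and its silique difference of 0.23 did. BnaA09g18700D passed in flower bud at 0.32 with the flower bud libraries alone, and BnaC09g52270D at 0.28 with replicate 2 alone for young leaf. Averaged over tissues, BnaA06g34810D was 0.28 and BnaC07g20900D 0.16, the latter reversed in sign from -0.01, without the young leaf libraries. BnaA06g34810D was 0.18 with replicate 2 alone and 0.08 to 0.21 with a library left out, and BnaC09g52270D -0.19 to -0.01. The adjusted interaction p for BnaC09g52270D was 0.045 with replicate 2 alone and 0.00298 to 0.406 with a library left out, against 0.00103 to 0.177 for BnaC07g20900D and 0.0118 to 0.496 for BnaA06g34810D. Cultivar calls gained with replicate 2 alone or without young leaf came in fits that called more of all genes. Where a group was left with 1 library, it was assumed to vary like the other groups. The cause was not tested for these or the other moves. As shares of log2(FPKM + 1), BnaA09g18700D averaged 26.7%, BnaC07g20900D 24.2% and BnaC09g52270D 24.0%.

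Over most pairs of groups the replicate numbers did not pair the samples, with young leaf as the main exception. Correlations of same-numbered deviations ran from -0.18 to 0.33 over 28 pairs of groups, and 1 exceeded 0.1, between the young leaf groups. Same-numbered young leaf libraries of the cultivars thus deviated partly alike. Flower bud of 2063A was at -0.18 with young leaf of B409 and at -0.13 with young leaf of 2063A. All other pairs were below 0.1 in size. The block changed no call of a copy other than those given. It is a single term shared by all groups, so it cannot describe a pairing within young leaf alone, which was not tested. With 2 libraries per group and unknown absolute depth, no counting interval could be given.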
